A study of Mus musculus with 11 samples.

Results

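The 10 antioxidant enzyme genes described here are the superoxide dismutases Sod1, Sod2 and Sod3, the peroxide-removing Cat, Gpx1, Gpx3 and Gpx4, and the stress enzymes Hmox1, Nqo1 and Txnrd1. They were chosen by name from 55421 genes, with earlier results of these data known. The secreted forms were set against the red cell forms. All 10 were among the 18125 genes that passed the filter on low counts. Reactive oxygen is removed in steps. Superoxide dismutases turn superoxide into hydrogen peroxide, and catalase, glutathione peroxidases and peroxiredoxins then remove the peroxide, with reducing power from glutathione, thioredoxin and NADPH. Sod3 and Gpx3 encode secreted forms that act outside cells, and SOD3 protein binds matrix polysaccharides and is known to be abundant in cartilage. Catalase (Cat) and Gpx1 serve in most cells and are plentiful in red cells, which carry oxygen on haem iron and need strong peroxide removal.

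The genes were measured by bulk sequencing of poly(A) RNA from scalpel-dissected articular cartilage of mouse knees. All animals were C57BL/6 mice aged 14 weeks, and the knees were taken 4 weeks after surgical destabilization of a meniscus (DMM), which makes the joint unstable and models osteoarthritis. The groups were the unoperated opposite knee of c-FosWT mice (contralateral, 4 libraries), the operated knee of c-FosWT mice (3 libraries) and the operated knee of c-FosDCh mice (4 libraries). The labels do not spell out c-FosDCh, which is read here as deletion of Fos in chondrocytes, and they name neither the promoter that drives the deletion nor the alleles of either genotype. The 3 operated c-FosWT knees have their opposite knees among the contralateral libraries, so the 11 libraries came from 8 animals. No unoperated c-FosDCh knee was analysed here.

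Genes received 13593454 to 18280558 counts per library. Levels are CPM, counts scaled to one common library size after TMM (a scaling that balances most genes between libraries), and ± is the SD of a level or the SE of a log2 fold change. Fos, the targeted gene, stood at 15.7 to 24.8 CPM in contralateral, 9.01 to 14.1 in c-FosWT DMM and 10.9 to 33.0 in c-FosDCh DMM libraries, so its counts did not check the genotype and every direction between genotypes rests on the label. All 16 cartilage markers were detected in every library, summing to 22874 to 44144 CPM in contralateral, 6983 to 18877 in c-FosWT DMM and 23920.0 to 89304 in c-FosDCh DMM libraries. All 16 erythroid markers, which mark the red cell lineage of the marrow, were also present everywhere, at 2650.2 to 7790.5, 9106 to 14750.0 and 714 to 5199 CPM. Muscle RNA was high in c-FosWT DMM replicate 1 and contralateral replicate 2, where Ckm stood at 813 and 583 CPM against 2.86 to 119.7 elsewhere. In bulk RNA, fewer cells of a type and less RNA per cell cannot be told apart.

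Among the 10 enzymes, 4 are made with selenocysteine, an amino acid that is inserted at a TGA codon which would otherwise end translation. These 4 include both a secreted and a red cell form, so their coding stretches are shown with that codon in capitals and up to 30 bases on each side. The sequences are from GENCODE M21 transcripts (GRCm38), and each gene lies on the plus strand. Codons are numbered in the longest annotated coding sequence that starts with ATG, so shorter isoforms can number them differently. Which isoform was made in cartilage was not tested. The TGA was codon 47 of 201 in Gpx1 (chr9:108339451-108339453), 73 of 226 in Gpx3 (chr11:54907256-54907258), 129 of 253 in Gpx4 (chr10:80054737-80054739) and 612 of 613 in Txnrd1 (chr10:82896037-82896039).
Gpx1: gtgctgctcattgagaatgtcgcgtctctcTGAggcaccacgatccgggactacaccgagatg
Gpx3: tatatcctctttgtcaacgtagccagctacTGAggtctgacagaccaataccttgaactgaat
Gpx4: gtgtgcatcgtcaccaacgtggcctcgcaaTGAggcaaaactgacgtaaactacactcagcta
Txnrd1: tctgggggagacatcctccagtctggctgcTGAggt
The 3 peroxidases carry the codon inside the coding sequence, while the thioredoxin reductase carries it just before the stop. The other 6 genes have no such codon.

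In operated knees, the secreted enzymes were higher and the red cell enzymes lower in c-FosDCh than in c-FosWT mice. On the log2 scale, Sod3 rose by 2.47 ± 0.49 and Gpx3 by 1.05 ± 0.22, while Cat changed by -1.05 ± 0.20 and Gpx1 by -1.0 ± 0.24. Together 4 of the 10 enzymes passed an adjusted p of 0.05 in edgeR's quasi-likelihood test, where 14.4% of all tested genes did, 10.6% higher and 3.79% lower. At an unadjusted p under 0.05 the count was 5 of 10 against 39.0% of all genes, and by DESeq2 5 of 10 against 29.7%, the fifth gene being Hmox1 in both. Because the enzymes were chosen with earlier results of these data known, these shares do not test the enzymes as a set. These calls are not stable: with a tissue score in the fit, with the 2 groups alone, or on leaving out any 1 of 6 libraries, 0 of the 10 passed, and at most 1 gene of the whole table did. The other 6, among them cytosolic Sod1, mitochondrial Sod2 and all 3 stress enzymes, did not pass. Between the c-FosWT DMM and contralateral knees 0 of the 10 passed, against 0.0% of all genes.

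Sod3 (ENSMUSG00000072941.5, chr5:52363791-52371418, plus strand, GRCm38) encodes the extracellular copper and zinc superoxide dismutase. It stood at 321, 469.8, 339 and 209 CPM in contralateral replicates 1 to 4, at 152, 64.1 and 125 CPM in c-FosWT DMM replicates 1 to 3, and at 444, 291, 712 and 1063 CPM in c-FosDCh DMM replicates 1 to 4. All 3 c-FosWT DMM libraries lay below every other library, and c-FosDCh DMM replicates 3 and 4 were the highest of all 11. The group mean was 335 ± 107 CPM (SD, n = 4) in contralateral, 114 ± 44.9 CPM (n = 3) in c-FosWT DMM and 627 ± 338 CPM (n = 4) in c-FosDCh DMM knees. The log2 difference between the operated groups, 2.47 ± 0.49, had an adjusted p of 0.0332 in edgeR. With 16.6 times between the lowest and highest library, Sod3 varied most of the 10 genes.

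Gpx3 (ENSMUSG00000018339.11, chr11:54902453-54910377, plus strand) encodes the glutathione peroxidase that is secreted into plasma and other fluids outside cells. Its level was 285, 395, 362 and 464 CPM in contralateral, 284, 196 and 256 CPM in c-FosWT DMM and 395, 473, 540.4 and 629 CPM in c-FosDCh DMM libraries. The c-FosWT DMM libraries were again the 3 lowest, although the highest of them was only about 1 CPM below contralateral replicate 1. From 245 ± 44.7 CPM (SD, n = 3) in c-FosWT DMM, the level rose to 510 ± 99.4 CPM (n = 4) in c-FosDCh DMM knees, with an adjusted p of 0.0332 in edgeR.

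Cat (ENSMUSG00000027187.10, chr2:103453849-103485160, minus strand) encodes catalase, which splits hydrogen peroxide in peroxisomes and in red cells. Its libraries read 54.6, 51.4, 50.4 and 74.9 CPM in contralateral, 91.9, 79.6 and 76.0 CPM in c-FosWT DMM and 46.1, 50.2, 33.3 and 29.5 CPM in c-FosDCh DMM knees. The order is the reverse of that of Sod3: the c-FosWT DMM libraries were the 3 highest, c-FosDCh DMM replicates 3 and 4 the lowest, and no c-FosDCh DMM library reached any other library. The last gap was narrow, with c-FosDCh DMM replicate 2 at 50.2 CPM and contralateral replicate 3 at 50.4 CPM. Between the operated groups, Cat fell from 82.5 ± 8.36 CPM (SD, n = 3) to 39.8 ± 9.92 CPM (n = 4), with an adjusted p of 0.0332 in edgeR.

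Gpx1 (ENSMUSG00000063856.7, chr9:108338903-108340343, plus strand) encodes the glutathione peroxidase of the cytosol and mitochondria, the main form inside red cells. It measured 262, 225, 219 and 358 CPM in contralateral, 378, 387 and 508 CPM in c-FosWT DMM and 275, 237, 189 and 150.3 CPM in c-FosDCh DMM libraries. Here too the c-FosWT DMM libraries were the 3 highest, while the contralateral and c-FosDCh DMM libraries overlapped. Gpx1 fell from 424 ± 72.8 CPM (SD, n = 3) in c-FosWT DMM to 213 ± 54.3 CPM (n = 4) in c-FosDCh DMM knees, with an adjusted p of 0.0336 in edgeR. The called fall of Gpx1 and rise of Gpx3 thus concern 2 peroxidases with the same chemistry and different places of action.

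**Figure D1:**
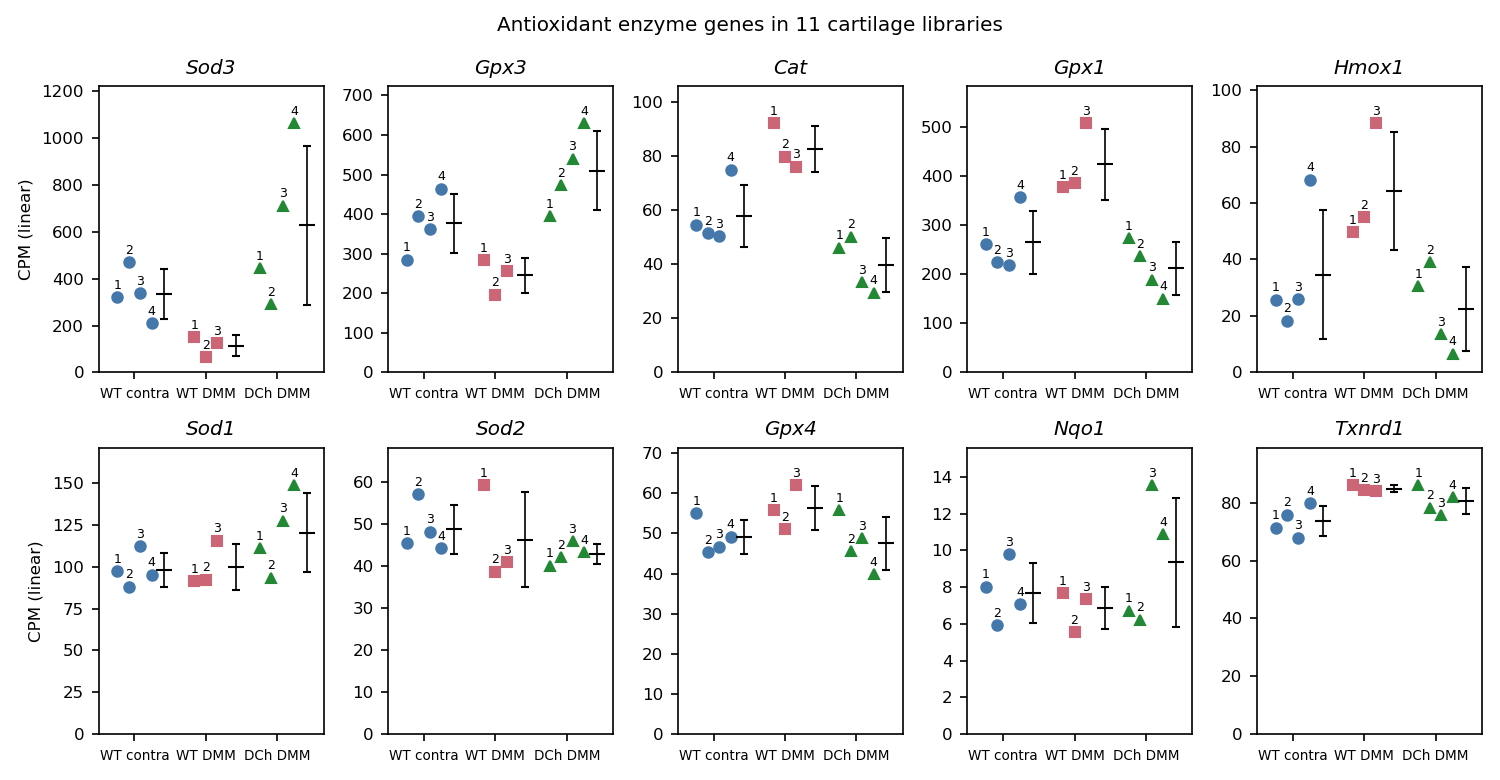
CPM of each of the 10 enzyme genes in each library, 1 panel per gene, with points for libraries by group and bars for the group mean and SD; each y axis starts at 0. Sod3 and Gpx3 are lowest in the 3 c-FosWT DMM libraries, Cat and Gpx1 are highest there, and Txnrd1 stays between 67.9 and 86.2 CPM.

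Of the stress enzymes, Hmox1 (heme oxygenase 1, which opens haem and frees its iron) varied most. Its level was 25.8, 18.4, 25.9 and 68.3 CPM in contralateral, 49.8, 55.1 and 88.2 CPM in c-FosWT DMM and 30.6, 38.9, 13.6 and 6.67 CPM in c-FosDCh DMM libraries. The operated groups did not overlap, but contralateral replicate 4 lay among the c-FosWT DMM libraries. The log2 difference between the operated groups, -1.52 ± 0.59, did not pass (adjusted p = 0.0911, edgeR), while DESeq2 called it at -1.55 (adjusted p = 0.0342). With Hmox1, 5 of the 10 genes had operated groups without overlap, against 33.0% of all tested genes.

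Nqo1 and Txnrd1 are among the standard targets of the stress regulator NRF2, whose activity was not tested. Nqo1, a quinone reductase, read 5.93 to 9.78 CPM in contralateral, 5.55 to 7.67 in c-FosWT DMM and 6.22 to 13.6 in c-FosDCh DMM libraries. Its log2 difference between the operated groups was 0.45 ± 0.29 (adjusted p = 0.26, edgeR), and only c-FosDCh DMM replicates 3 and 4 exceeded the other group. Txnrd1, the cytosolic thioredoxin reductase, had the narrowest range, 1.27 times between its lowest and highest library. It read 67.9 to 79.8 CPM in contralateral, 84.0 to 86.2 in c-FosWT DMM and 75.8 to 86.2 in c-FosDCh DMM libraries, a log2 difference of -0.08 ± 0.09 between the operated groups (adjusted p = 0.522, edgeR). Nfe2l2, the gene of NRF2 itself, ranged from 52.9 to 75.5 CPM over the 11 libraries, and Keap1, its inhibitor, from 44.0 to 82.4 CPM.

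The dismutases inside cells did not pass. Sod1, the copper and zinc form of the cytosol, read 88.0 to 112 CPM in contralateral, 91.5 to 116 in c-FosWT DMM and 93.6 to 149 in c-FosDCh DMM libraries, with a log2 difference of 0.27 ± 0.16 between the operated groups (adjusted p = 0.228, edgeR). Sod2, the manganese form of mitochondria, read 44.3 to 57.1, 38.6 to 59.4 and 40.1 to 45.9 CPM, a log2 difference of -0.11 ± 0.15 (adjusted p = 0.594). The 2 highest Sod2 values, 59.4 and 57.1 CPM, were those of the 2 libraries rich in muscle RNA, and without these 2, a choice made after seeing the data, the log2 difference was 0.07. The part of muscle RNA in the level of Sod2 was not tested. Gpx4, which reduces lipid peroxides in membranes and protects against ferroptosis, read 45.3 to 55.0, 51.0 to 62.1 and 39.9 to 55.8 CPM, a log2 difference of -0.25 ± 0.13 (adjusted p = 0.17). A processed pseudogene copy of Gpx4 lies elsewhere in the genome, so its counts are uncertain.

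Surgery in c-FosWT mice gave differences of the opposite sign in Sod3, Gpx3, Cat and Gpx1, and 0 of the 18125 genes passed in this comparison (lowest adjusted p 0.182 in edgeR). At an unadjusted p under 0.05 there were 3605 genes (19.9%), 5 of the 10 enzymes among them, and DESeq2 called 902 (6.06%). The log2 differences, c-FosWT DMM minus contralateral, were -1.56 ± 0.47 for Sod3 (adjusted p = 0.182, edgeR), -0.62 ± 0.21 for Gpx3 (0.187), 0.51 ± 0.20 for Cat (0.211) and 0.67 ± 0.24 for Gpx1 (0.189). These genes and Txnrd1, at 0.20 ± 0.09 (adjusted p = 0.236), had groups without overlap: 5 of the 10 enzymes, against 23.1% of all tested genes. DESeq2 called 1 of the 10, Sod3 (log2 -1.54, adjusted p = 0.0276). The other members read 0.89 ± 0.59 for Hmox1 (adjusted p = 0.399; 1.48 without contralateral replicate 4), 0.20 ± 0.13 for Gpx4 (0.388), 0.02 ± 0.16 for Sod1 (0.947), -0.07 ± 0.15 for Sod2 (0.788) and -0.17 ± 0.29 for Nqo1 (0.746). Since both comparisons use the same 3 c-FosWT DMM libraries, opposite signs in them are not independent results.

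Within the 3 animals that gave both knees, the log2 difference, operated minus opposite knee, was -1.08, -2.87 and -0.74 for Sod3 and 0.53, 0.78 and 0.50 for Gpx1. It was 0.75, 0.63 and 0.02 for Cat, so the third animal showed almost no difference. Gpx3 differed by -0.01, -1.01 and -0.86, and Hmox1 by 0.94, 1.58 and 0.37. In the same animals the erythroid score, the mean log2 CPM of the erythroid markers, was higher in the operated knee by 1.66, 2.09 and 0.96, and the cartilage score differed by -0.46, -1.33 and -0.85. The part of either tissue in the differences of the enzymes between the knees was not tested within animals.

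The c-FosDCh DMM and contralateral groups differ in genotype and surgery together, so neither can be read from them, and 0 of the 18125 genes passed (0.0%; lowest adjusted p 0.584 in edgeR; 1512 genes, or 8.34%, at an unadjusted p under 0.05; 41 genes, or 0.227%, by DESeq2, none of them an enzyme described here). The secreted forms read 0.91 ± 0.42 for Sod3 and 0.44 ± 0.20 for Gpx3, both with an adjusted p of 0.584 in edgeR. Cat read -0.54 ± 0.19 (adjusted p = 0.584) and was the 1 gene of the 10 whose groups did not overlap, against 4.4% of all tested genes. Its groups nearly touched, at 50.2 CPM in c-FosDCh DMM replicate 2 and 50.4 CPM in contralateral replicate 3. Gpx1 read -0.32 ± 0.22 and Hmox1 -0.62 ± 0.55, and the other 5 lay between -0.19 and 0.29. These values rest on single libraries: without contralateral replicate 4 Hmox1 read -0.06 and Gpx1 -0.15, without c-FosDCh DMM replicate 4 they read -0.31 and -0.17 and Sod3 0.56, and without c-FosDCh DMM replicate 2 Hmox1 read -1.03.

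**Figure D2:**
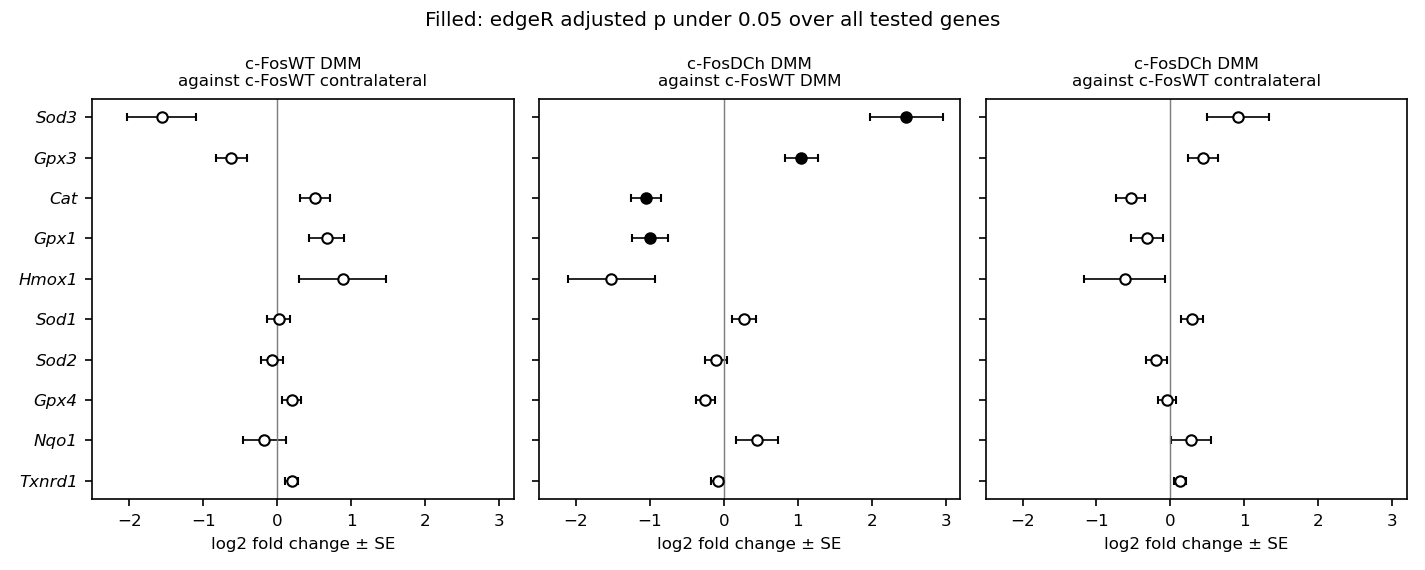
Log2 fold changes of the 10 genes in the 3 comparisons, with bars of 1 SE and filled points at an edgeR adjusted p under 0.05. Filled points are Sod3 at 2.47, Gpx3 at 1.05, Cat at -1.05 and Gpx1 at -1.0, all between c-FosDCh DMM and c-FosWT DMM knees.

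Levels of different genes were set side by side after division by exon length, counting every annotated exon base of a gene once. That length can exceed the transcript made in cartilage, which lowers the value. It was 3970 bases for Sod1 and 10008 for Sod2, so the order of genes is approximate. On that scale, CPM per kilobase, the 2 glutathione peroxidases led in contralateral cartilage, with Gpx3 at 208 ± 41.1 (SD, n = 4) and Gpx1 at 185 ± 44.6, and their ranges overlapped. In c-FosWT DMM knees Gpx1 stood at 294 ± 50.6 (n = 3) and Gpx3 at 135 ± 24.6, and the lowest Gpx1 value, 262, lay above the highest Gpx3 value, 157. In c-FosDCh DMM knees the order was the other way, with Gpx3 at 281 ± 54.8 (n = 4), never under 218, and Gpx1 at 148 ± 37.7, never over 190.5. On this scale the secreted peroxidase had the highest mean of the 10 genes in c-FosDCh DMM knees, and the intracellular one in c-FosWT DMM knees. Sod3 came next after both peroxidases in contralateral knees, at 89.5 ± 28.6 CPM per kilobase. In c-FosDCh DMM knees its mean, 168 ± 90.5, lay between those of Gpx3 and Gpx1. Sod1, the cytosolic form, stood at 24.8 ± 2.58 and 30.3 ± 5.96 in these 2 groups. In c-FosWT DMM knees Sod3 lay within the range of the others, at 30.4 ± 12.002 CPM per kilobase against 25.1 ± 3.44 for Sod1, 31.6 ± 3.2 for Cat, 32.7 ± 3.23 for Gpx4 and 36.8 ± 11.9 for Hmox1. The Sod3 range, 17.1 to 40.5, overlapped those of these 4 genes, while all 3 Gpx4 values lay above all 3 Sod1 values. Txnrd1, Nqo1 and Sod2 had the lowest values on this scale, averaging 11.2, 5.2 and 4.59 over the 11 libraries.

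The secreted forms were set against the red cell forms in each library, as the mean log2 CPM of Sod3 and Gpx3 minus that of Cat and Gpx1. This difference was 1.34, 2.0, 1.74 and 0.93 in contralateral, 0.15, -0.65 and -0.14 in c-FosWT DMM and 1.90, 1.77, 2.96 and 3.62 in c-FosDCh DMM libraries. The c-FosWT DMM libraries lay apart from all others, near or below 0, and c-FosDCh DMM replicates 3 and 4 had the highest values. The 4 genes are those called between the operated groups, so this separation restates their levels and is not a further result. Group means were 1.5 ± 0.47 (SD, n = 4), -0.21 ± 0.40 (n = 3) and 2.56 ± 0.88 (n = 4).

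The erythroid score ran broadly opposite to this difference and the cartilage score broadly followed it, each with exceptions. The erythroid score was 6.46 ± 0.84 in contralateral, 8.26 ± 0.34 in c-FosWT DMM and 5.84 ± 1.20 in c-FosDCh DMM libraries, and the 3 c-FosWT DMM libraries were the 3 highest. The cartilage score was 9.18 ± 0.31, 8.28 ± 0.80 and 9.24 ± 0.63, so contralateral and c-FosDCh DMM knees had similar means. Replicates 1 and 2 of c-FosDCh DMM had cartilage scores of 8.67 and 8.73 with differences of 1.90 and 1.77, while c-FosWT DMM replicate 1 had 9.0 with 0.15. For the erythroid score, c-FosDCh DMM replicate 2 had 7.14 with a difference of 1.77, while contralateral replicate 1 had 6.31 with 1.34. Replicates 3 and 4 of c-FosDCh DMM had the lowest erythroid scores of all 11 libraries, 5.56 and 4.32, and the highest cartilage scores, 9.80 and 9.77. Their granulocyte scores, 6.8 and 3.97, and macrophage scores, 3.99 and 3.04, were also the lowest. The same held for their endothelial scores, 3.8 and 3.19, and adipocyte scores, 0.69 and -0.83. Alas2, the first enzyme of haem synthesis in red cell precursors, fell by 2.2 ± 0.55 on the log2 scale between the operated groups (adjusted p = 0.0364, edgeR). Slc4a1 fell by 2.3 ± 0.67 (adjusted p = 0.0477), while Hbb-bs, at -2.02 ± 0.67, did not pass (0.0639). Acan, the core protein of the main cartilage proteoglycan, rose by 2.43 ± 0.53 (adjusted p = 0.0332). Prg4 rose by 3.21 ± 0.76 (adjusted p = 0.0336), while Col2a1, at 0.76 ± 0.47, did not pass (0.239). Prdx2, a peroxiredoxin that is abundant in red cells and not part of the difference, fell by 1.04 ± 0.29 (adjusted p = 0.0423). Sod1, counted as a red cell form in an alternative, went the other way at 0.27 ± 0.16 and did not pass (adjusted p = 0.228, edgeR). The part of either tissue in the difference between secreted and red cell forms was not tested.

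**Figure D3:**
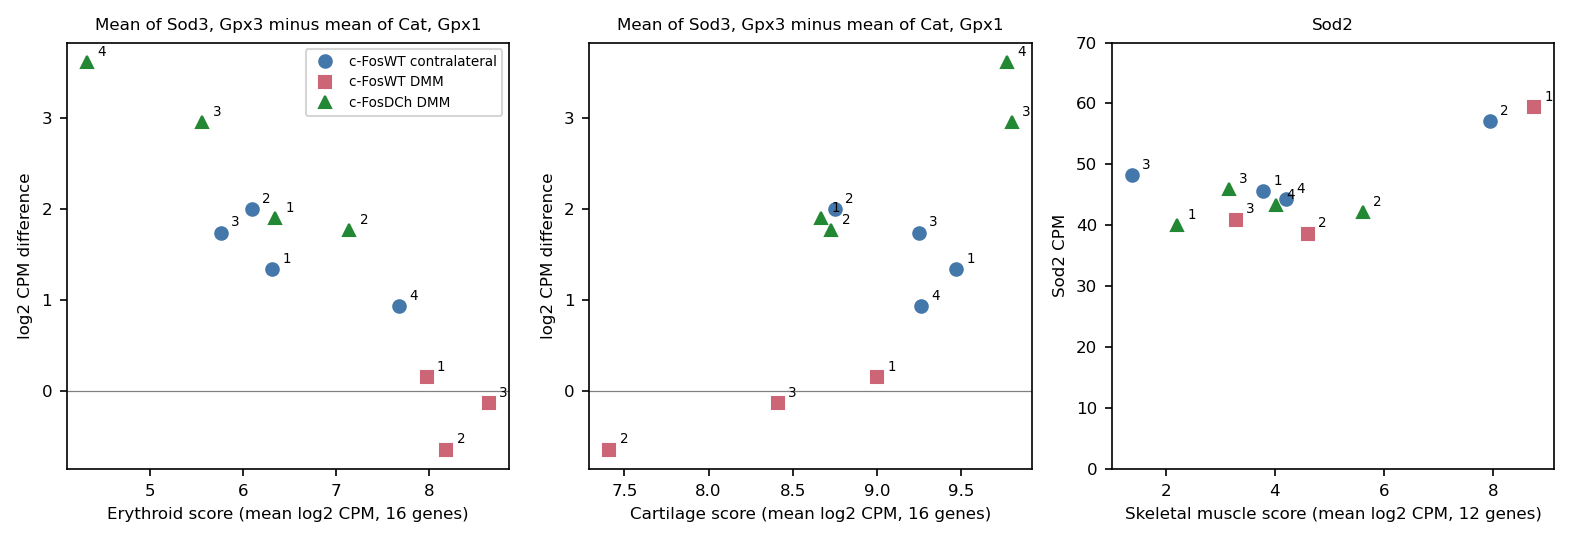
The mean log2 CPM of Sod3 and Gpx3 minus that of Cat and Gpx1 in each of the 11 libraries, against the erythroid score and against the cartilage score (mean log2 CPM of 16 markers each), and Sod2 CPM against the skeletal muscle score (12 markers); numbers are replicates. The difference restates genes called between the operated groups. The 3 c-FosWT DMM libraries lie at 0.15 or less with erythroid scores of 7.97 or more. Replicates 3 and 4 of c-FosDCh DMM lie at 2.96 and 3.62 with the lowest erythroid scores. Sod2 is highest, at 59.4 and 57.1 CPM, in the 2 libraries with the highest muscle scores.

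With the marrow score (erythroid and granulocyte markers together) as a term in the fit, the log2 differences between the operated groups were 1.29 for Sod3, 0.84 for Gpx3, -0.61 for Cat, -0.43 for Gpx1 and -0.09 for Hmox1, and 0 of the 10 genes passed (adjusted p 0.457 or more). With the cartilage score they were 1.73, 0.77, -0.92, -0.84 and -1.09, again with 0 passing, and with the muscle score 2.61, 1.13, -1.0, -1.06 and -1.58, with 0 passing at adjusted p of 0.056 or more. Without c-FosDCh DMM replicates 3 and 4, a choice made after seeing the data, they were 1.69, 0.81, -0.79, -0.74 and -0.90, and 0 passed (adjusted p 0.163 or more). In these fits 0 of all tested genes passed, so the loss was not particular to the enzymes. All 4 calls were also lost in the fit of the 2 groups alone (adjusted p 0.0846) and on leaving out contralateral replicate 1 or 2, c-FosWT DMM replicate 2 or 3, or c-FosDCh DMM replicate 3 or 4, and there too 0 of all tested genes passed, except 1 gene without contralateral replicate 2. Over the 11 fits that each left out 1 library, Sod3 ranged from 2.09 to 2.70, Gpx3 from 0.90 to 1.14, Cat from -1.19 to -0.94 and Gpx1 from -1.17 to -0.86.

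The rest of the antioxidant system was read from 7 lists of 101 genes, of which 99 were tested. Between the operated groups 9 rose and 8 fell, 17.2% against 14.4% of all genes, with a median log2 difference of -0.31 against -0.01 over all genes. The balance depends on the fit: 5 rose and 10 fell with library totals alone, 7 and 9 with RLE scaling, and 10 and 22 without c-FosDCh DMM replicate 1. In the main fit 10.6% of all genes rose and 3.79% fell, the shares to set beside the count of each list. In the thioredoxin and peroxiredoxin list, 2 of 21 rose and 4 fell. Txnrd2, the mitochondrial thioredoxin reductase, fell from 37.4 ± 7.88 CPM (SD, n = 3) to 18.2 ± 3.36 (n = 4), a log2 change of -1.04 ± 0.23 (adjusted p = 0.0332, edgeR). Cytosolic Txnrd1 did not pass, and the difference between these 2 genes was not tested. Prdx3, the peroxiredoxin of mitochondria, fell by 0.73 ± 0.19 (adjusted p = 0.0378), and Sesn3, a sestrin, rose by 1.46 ± 0.37 (adjusted p = 0.0367).

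In the glutathione list, 1 of 22 rose and 2 fell. The 2 that fell, Gclc and Gclm, encode the catalytic and modifier subunits of glutamate-cysteine ligase, which makes the rate-limiting step of glutathione synthesis. Gclm read 94.8, 88.3 and 109.6 CPM in c-FosWT DMM and 38.6, 50.9, 33.2 and 30.3 CPM in c-FosDCh DMM libraries, a log2 change of -1.35 ± 0.32 (adjusted p = 0.0343, edgeR). Gclc fell by 0.84 ± 0.20 (adjusted p = 0.0344, edgeR). Neither gene's operated groups overlapped, which held for 33.0% of all tested genes. In contralateral replicates 1 to 4, Gclm read 46.1, 33.3, 30.5 and 83.6 CPM, and replicate 4 had the highest erythroid score of that group. The part of red cell RNA in the level of Gclm was not tested. Gpx7, a peroxidase of the endoplasmic reticulum, rose by 0.69 ± 0.19 (adjusted p = 0.0414). Gpx2 and Gsta3 did not pass the filter on low counts.

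Among 9 genes of NADPH supply, 1 rose: Me1, cytosolic malic enzyme, from 19.1 ± 11.05 to 71.2 ± 42.8 CPM, by log2 1.90 ± 0.52 (adjusted p = 0.0418, edgeR). The median over the list was -0.51, so the other members lay mostly on the opposite side. Of 10 genes of haem breakdown and iron, 2 fell, among them Blvrb, a biliverdin reductase that is abundant in red cells, which fell by 1.74 ± 0.49 (adjusted p = 0.044).

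Of 12 genes around NRF2, 1 rose: Maff, a small MAF protein that pairs with NRF2 on DNA, went from 5.46 ± 2.003 to 29.4 ± 20.1 CPM, log2 2.42 ± 0.51 (adjusted p = 0.0332, edgeR). Its c-FosDCh DMM libraries read 15.99, 14.8, 28.7 and 58.1 CPM, highest again in replicates 3 and 4. In the selenoprotein and copper list 3 of 13 rose and 0 fell, where 10.6% of all genes rose and 3.79% fell. These were Selenom (0.81 ± 0.19, adjusted p = 0.0335), Atox1, a chaperone that carries copper and also supplies SOD3 (0.73 ± 0.21, 0.0444), and Selenof (0.40 ± 0.12, 0.048). Among 12 oxidant sources 1 rose, Aox1, aldehyde oxidase (1.39 ± 0.30, adjusted p = 0.0332), with a list median of -0.98. The 17 calls were lost in the same fits as those of the enzymes, with the marrow, muscle or cartilage score, with the 2 groups alone or on leaving out 1 of the same 6 libraries, where 0 of the 99 passed. Without contralateral replicate 3 there were 8 calls (1355 over all genes), and without c-FosDCh DMM replicate 1 or 2 there were 32 and 31 (4449 and 4626), against 17 and 2616 with all libraries.

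**Figure D4:**
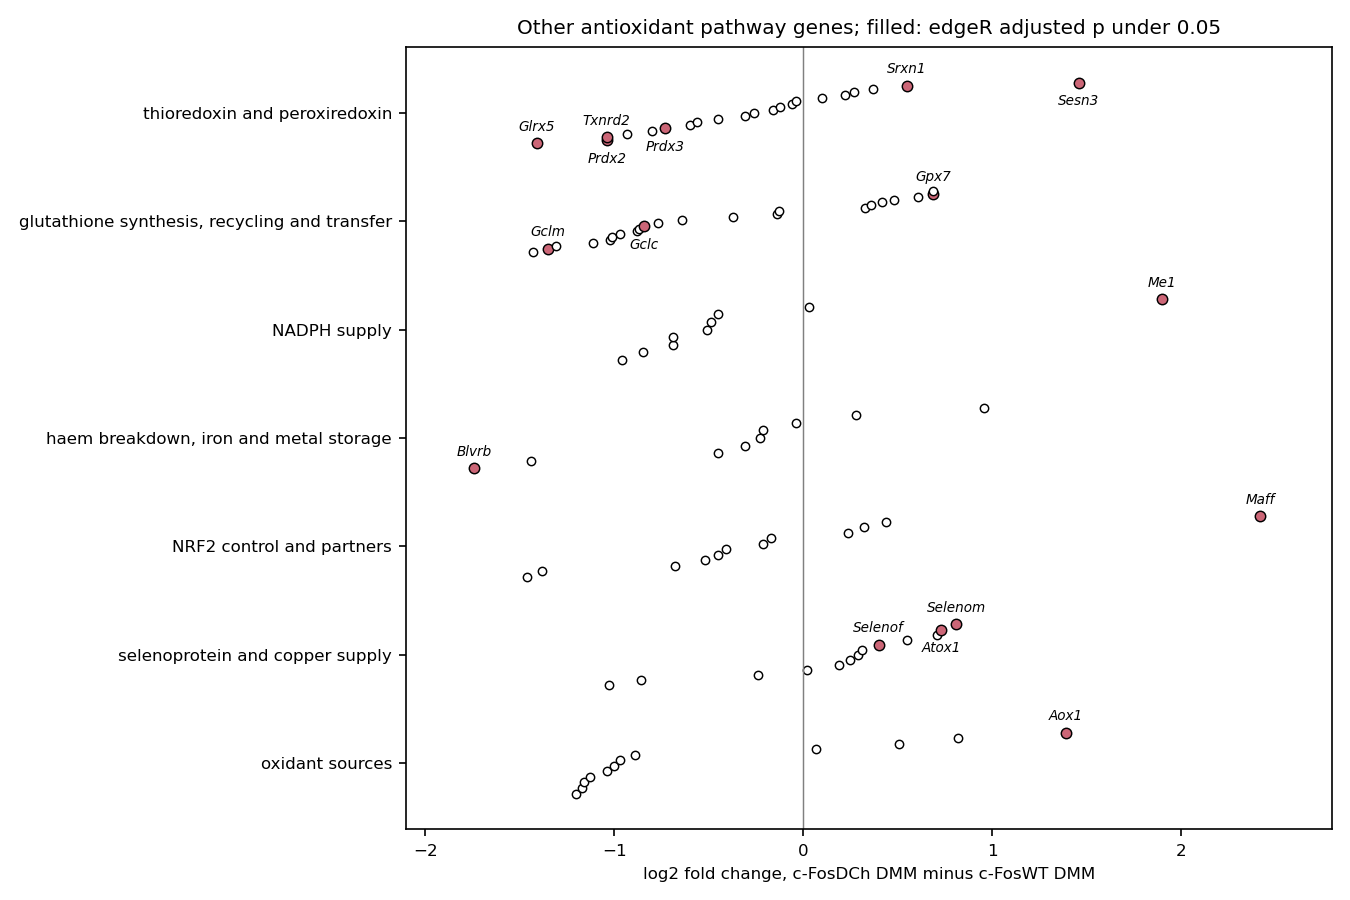
Log2 fold change between c-FosDCh DMM and c-FosWT DMM knees for the tested genes of the 7 antioxidant lists, 1 gene left out, with filled and named points at an edgeR adjusted p under 0.05. Maff, at 2.42, and Me1, at 1.90, lie farthest to the right, and Blvrb, at -1.74, farthest to the left.

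In the other comparisons 0 of the 99 genes passed, with medians of 0.14 between the c-FosWT knees and -0.13 between c-FosDCh DMM and contralateral knees. The genes of smallest p within each list, named at most 2 a list in the order of the lists above, did not pass. Between the c-FosWT knees they were Txnrd2 (log2 0.91) and Prdx2 (0.98), Gclc (0.82) and Gclm (1.01), Me1 (-1.22) and Taldo1 (0.53), Blvrb (1.46), Mafk (0.67) and Cul3 (0.32), Selenom (-0.65) and Selenof (-0.24), and Aox1 (-1.07) and Nox4 (-0.63). DESeq2 called 9 of the 99 in that comparison, 7 higher and 2 lower. Between c-FosDCh DMM and contralateral knees, the genes of smallest p within each list were Txnip (-0.77) and Srxn1 (0.36), Gstm2 (-1.26) and Ggt7 (-0.97), Me1 (0.68) and Idh1 (-0.22), Mt2 (-1.04), Maff (1.4) and Keap1 (0.39), Selenop (-0.74) and Atox1 (0.44), and Nox4 (-0.56) and Aox1 (0.32), and none passed. Txnip, the thioredoxin inhibitor, read 387 ± 82.3 CPM in contralateral and 228 ± 65.2 CPM in c-FosDCh DMM knees.

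Genes whose log2 CPM followed the enzymes most closely over the 11 libraries were found by Pearson's r, as a description of libraries that also share their tissue makeup. For Sod3 they were Mtmr11 (0.994), Lrp1 (0.993), Dchs1, Hoxd9 and Tmbim1 (0.991 each), and for Gpx3 Nr6a1 (0.962), Shc4, Cfap69, Polk and Mypop. For Cat they were Zfp992 (0.980), Lsm3, Frmd4a, Ubald2 and Tmem123, and for Gpx1 Prkab1 (0.984), Hnrnpab, Tmem14c, Creg1 and Isg15. Hmox1 had Lmo2 (0.988), Sfxn1, Birc5, Syce2 and Ube2c. Lmo2 is a regulator of blood cell formation, and Birc5 and Ube2c act in cell division. Sod2 had Art3 (0.971), Nipsnap2, Slc25a4, Smarcd3 and Plpp7, of which Slc25a4 is the ADP/ATP carrier of muscle mitochondria. The closest gene was less close for Sod1 (Max, 0.941), Gpx4 (Lsm4, 0.923), Nqo1 (Tor3a, 0.956) and Txnrd1 (Aoc2, 0.885).

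The DNA before the RefSeq start is shown for Cat, Gpx1 and Gpx3, which passed and have a RefSeq promoter entry (GRCm38.p6), as the part of the 250 bases upstream that lies outside annotated exons, on the gene's strand. Capitals mark CCAAT boxes (CCAAT, or ATTGG on the other strand) and GC boxes (GGGCGG, or CCGCCC), which are general promoter elements. The stretches are chr2:103485161-103485403 for Cat (minus strand), chr9:108338830-108338902 for Gpx1 and chr11:54902604-54902771 for Gpx3 (both plus strand). The RefSeq start used for Gpx3 is an internal one: its stretch lies inside the gene as GENCODE M21 draws it, after the first M21 start. The RefSeq start of Gpx1 also lies after the first M21 start, and its stretch ends just before that M21 start. The stretches of Gpx1 and Gpx3, of 73 and 168 bases, therefore lack the bases nearest the RefSeq start.
Cat: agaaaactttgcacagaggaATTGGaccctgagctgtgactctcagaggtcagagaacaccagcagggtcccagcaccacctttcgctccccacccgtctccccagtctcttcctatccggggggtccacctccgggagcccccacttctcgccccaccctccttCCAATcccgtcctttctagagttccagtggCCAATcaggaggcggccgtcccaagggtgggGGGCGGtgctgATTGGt
Gpx1: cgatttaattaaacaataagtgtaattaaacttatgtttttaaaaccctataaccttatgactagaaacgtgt
Gpx3: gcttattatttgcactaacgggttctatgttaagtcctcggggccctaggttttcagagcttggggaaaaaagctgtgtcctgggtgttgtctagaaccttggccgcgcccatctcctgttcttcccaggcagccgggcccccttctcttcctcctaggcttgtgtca
The Cat stretch holds 4 CCAAT boxes and 1 GC box, and those of Gpx1 and Gpx3 hold neither. Over all 32851 promoter windows of 300 bases, 37.4% hold a CCAAT box and 35.7% a GC box, but the shorter stretches printed here have fewer places for one. The full windows were also searched on both strands for the antioxidant response element that NRF2 binds (TGACNNNGC, in 12.4% of all windows), the AP-1 element that FOS proteins bind (TGANTCA, 7.81%) and the GATA element (AGATAA or TGATAA, 18.6%). The first was found in Sod1 and in 1 of the windows of Txnrd1, the second in none of the 8 genes with a window, and the third in Gpx4. Cat, Gpx1 and Gpx3 hold none of these letters in this window. A match is a stretch of letters and not a measured binding site. Sod3 and Hmox1 were not searched.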

How the data were processed

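Poly(A) RNA of 11 knee cartilage libraries was sequenced as 75-base single reads from directional libraries, per the labels' protocols. The authors deposited raw counts per gene, 1 file per library. The submitters' processing notes name bcl2fastq 2.19.1.403, STAR 2.6.1a, RSEM, DESeq2 1.22.2 and GRCm38. Neither the annotation release nor the strand counted was stated, so counts of genes with an antisense partner can be off. None of the 10 enzyme genes shares exon bases with another gene. Gene counts were 33.08 to 43.16% of reads, and the 4 classes of reads not assigned to genes were left out. Identifiers matched GENCODE M21 for 55240 of 55421 genes, which also gave exon lengths. Within groups, all pairs of libraries differed by more than sampling noise (lowest chi-square per degree of freedom 31.03), so each was 1 replicate. The c-FosDCh libraries were numbered by accession order, as 2 share a label number, and come from different animals.

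The main test was edgeR 4.0.16 in R 4.3.3 (filterByExpr, TMM, 1 quasi-likelihood fit of all 11 libraries by group, robust), with Benjamini-Hochberg adjustment over 18125 genes, 2-sided tests and a threshold of 0.05. Log2 CPM used a prior count of 2. The edgeR steps were tested on simulated data. Alternatives were DESeq2 1.42.0, limma 3.58.1 (limma-voom, with and without the animal as a random block), library totals alone, RLE scaling, no filter, the 2 groups alone, marker scores as a term, the animal as a fixed block, and leaving out libraries. Titles give the same animal number to 3 pairs of knees. The correlations of their deviations from the group means were -0.167, -0.177 and 0.254. Other software was data.table (version 1.17.8), Python 3.11.15, pandas 2.3.3 for tables and matplotlib 3.10.9 for figures.

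The enzymes, the 7 pathway lists, the 9 marker lists and the tests were chosen with earlier results of these data known. Text names the 10 enzymes, for each pathway list and comparison at most 4 called genes, taken by p, (where a list had none, its 2 genes of smallest p), the 5 nearest genes of an enzyme by Pearson's r (mean of at least 1 log2 CPM) and fixed reference genes. The counts include 1 gene of the pathway lists that is not reported here. The other marker lists were granulocyte, skeletal muscle, macrophage, endothelial, adipocyte, osteoblast and osteocyte, and fibroblast. Their mean scores (contralateral, c-FosWT DMM, c-FosDCh DMM) were 7.89, 8.73 and 6.89 for granulocyte, 4.33, 5.55 and 3.75 for muscle, 5.49, 5.71 and 4.38 for macrophage, 5.37, 5.64 and 4.29 for endothelial, 3.92, 3.85 and 1.75 for adipocyte, 7.56, 6.94 and 6.86 for osteoblast and 6.44, 6.06 and 6.22 for fibroblast genes.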

Additional observations from a re-analysis of the deposited data

Results flagged for a closer look

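The following values stood apart from the rest of their group. Contralateral replicate 4 had the highest Cat level of the 4 contralateral libraries, 74.9 CPM against 50.4 to 54.6, and its gap to the next library, divided by the group's range, was just above Dixon's 95% limit. The same library had the highest Hmox1 level, 68.3 CPM against 18.4 to 25.9, with a ratio of 0.848. Chance gives such a value in about 1 of 20 groups, and 20 groups of 4 were checked. Contralateral replicate 4 also had the highest erythroid score of its group, 7.67 against 5.76 to 6.31, and Alas2 stood there at 249.9 CPM against 89.6 to 101.5. The part of red cell RNA in these 2 values was not tested.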

How the results depend on the processing

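Between the operated groups, 0 of the 10 enzymes passed with the marrow, muscle or cartilage score, in the fit of the 2 groups alone, without c-FosDCh DMM replicates 3 and 4, and without c-FosWT DMM replicate 1 and contralateral replicate 2 (the last 2 settings chosen after seeing the data). Leaving out 1 library gave 0 to 5 enzymes and 0 to 32 pathway genes, while the calls over all genes ran from 0 to 4626. Of the 99 pathway genes, 8 passed without the filter (1443 over all genes), 29 with DESeq2 (11 higher, 18 lower), and 0 with each score or the 2 groups alone. Between the c-FosWT knees DESeq2 called 1 enzyme and 9 pathway genes. The cause of these losses and gains was not tested. Directions turned only in enzymes that did not pass. With the marrow score, Sod2 (0.02), Hmox1 (-0.06) and Nqo1 (0.12) turned between the c-FosWT knees, Sod1 (-0.02) and Nqo1 (-0.04) between the operated groups, and Gpx4 (0.03) between c-FosDCh DMM and contralateral. With the cartilage score, Sod2 (0.06) and Nqo1 (0.36) turned between the c-FosWT knees and Nqo1 (-0.17) between the operated groups, and with the muscle score Sod2 (0.02) there. Without c-FosDCh DMM replicates 3 and 4, Nqo1 read -0.09 between the operated groups, and Gpx4 0.07, Hmox1 0.02 and Nqo1 -0.23 against contralateral. Without c-FosWT DMM replicate 1 and contralateral replicate 2, Sod2 read 0.07 between the operated groups. With library totals alone Txnrd1 read -0.04 between c-FosDCh DMM and contralateral, all genes shifted by a median of -0.17 between the operated groups, and the higher share of calls there was 54.5% against 73.7%. Leaving out 1 library moved Sod1 from -0.09 to 0.11 and Sod2 from -0.27 to 0.05 between the c-FosWT knees, Sod2 from -0.24 to 0.07 between the operated groups and Gpx4 from -0.14 to 0.05 against contralateral. With the animal as a fixed replicate block over the 3 pairs, 0 genes passed and Sod3 read -1.53, Gpx3 -0.61, Cat 0.48 and Gpx1 0.62; as a random block, the same 4 enzymes passed between the operated groups. The block changed no call of an enzyme. Of 700 values of single enzymes under an alternative, 625 kept their direction and side of the threshold. Most of these passed neither in the main fit nor in the alternative. The 4 called differences lost their call in 24 values on leaving out 1 library and in 24 under other alternatives. The lowest counts, 83 for Nqo1 and 84 for Hmox1, limit the precision of these genes.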
